A study of Homo sapiens with 6 samples.

Results

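The tubulin isotypes described here are the 10 genes TUBA1A, TUBA1B, TUBA1C and TUBA4A (alpha) and TUBB, TUBB2A, TUBB2B, TUBB3, TUBB4B and TUBB6 (beta), chosen by gene symbol among the 58219 gene identifiers of the deposited counts. Poly(A) RNA of SNU-387 cells, a line established from a human hepatocellular carcinoma, was sequenced in 6 samples. The shYES1 group (3 samples) stably expresses a short hairpin RNA against YES1, which encodes a SRC-family tyrosine kinase, and the shNT group (3 samples) stably expresses a hairpin with no target. Both groups are otherwise the same untreated line per the labels, which do not give the number of hairpins, clones or separate cultures behind the 3 samples of a group. The p-values therefore reflect differences among these particular samples, and that spread may be technical.

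Microtubules are hollow polymers of alpha-tubulin and beta-tubulin dimers, and they form the mitotic spindle, cilia and the tracks for transport inside cells. Each subunit comes in several isotypes made from separate genes, whose proteins are nearly the same in the body and differ most in the C-terminal tail, where enzymes remove or add tyrosine and glutamate and where motors and other proteins bind. The isotypes also differ in where they are usually abundant: TUBB3, TUBB2B and TUBA1A are best known from neurons, while TUBB, TUBB4B, TUBA1B and TUBA1C are widely expressed. Cells also hold their tubulin in check through the mRNA: when free dimers are in excess, a factor that reads the first amino acids of a tubulin chain emerging from the ribosome starts the decay of the mRNA being translated.

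The last 60 coding bases of TUBA4A and of the beta members are printed because this stretch encodes the variable tail, and it shows how far the beta isotypes can be told apart by their reads in this region. Sequences are from GENCODE release 29 on GRCh38, 1 transcript per gene, with the last sense codon in capitals.
TUBA4A: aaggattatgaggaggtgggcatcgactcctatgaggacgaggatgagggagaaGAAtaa
TUBB: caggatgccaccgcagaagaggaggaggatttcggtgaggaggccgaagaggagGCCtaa
TUBB2A: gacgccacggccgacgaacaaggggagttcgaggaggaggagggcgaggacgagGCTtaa
TUBB2B: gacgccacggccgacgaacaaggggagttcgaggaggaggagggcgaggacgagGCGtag
TUBB3: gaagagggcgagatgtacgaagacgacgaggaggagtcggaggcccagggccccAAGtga
TUBB4B: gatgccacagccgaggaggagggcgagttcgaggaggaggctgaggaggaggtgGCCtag
TUBB6: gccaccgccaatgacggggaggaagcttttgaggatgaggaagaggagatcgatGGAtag
TUBA4A ends in a glutamate codon, so its protein is made without the terminal tyrosine known from other alpha-tubulins. The TUBB2A and TUBB2B ends were alike except in the last codon and the stop codon. TUBB3 alone among the beta members ends in a lysine codon.

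The first 60 coding bases of TUBB and TUBB2A are printed because they encode the amino acids that the decay factor reads. Capitals mark bases of TUBB2A that differ from TUBB, none of which changes the encoded amino acid.
TUBB: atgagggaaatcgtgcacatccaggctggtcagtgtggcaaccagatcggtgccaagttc
TUBB2A: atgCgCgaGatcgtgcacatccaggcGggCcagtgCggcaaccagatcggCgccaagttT
The other beta members differed from TUBB at 5 bases (TUBB3) or 8 bases (TUBB2A, TUBB2B, TUBB4B and TUBB6).

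The members lie in several parts of the genome (GRCh38, GENCODE release 29). TUBA1A (ENSG00000167552.13, chromosome 12, 49184796 to 49189324, minus strand), TUBA1B (ENSG00000123416.15, chromosome 12, 49127782 to 49131397, minus strand) and TUBA1C (ENSG00000167553.15, chromosome 12, 49188736 to 49274603, plus strand) form a cluster. TUBA4A (ENSG00000127824.13) lies on chromosome 2, 219249711 to 219278170, minus strand. Of the beta genes, TUBB2A (ENSG00000137267.5, 3153669 to 3157526, minus strand), TUBB2B (ENSG00000137285.9, 3224261 to 3231730, minus strand) and TUBB (ENSG00000196230.12, 30720201 to 30725426, plus strand) are on chromosome 6. TUBB3 (ENSG00000258947.6) lies on chromosome 16, 89921392 to 89938761, plus strand. TUBB4B (ENSG00000188229.5) lies on chromosome 9, 137241213 to 137243707, plus strand, and TUBB6 (ENSG00000176014.12) on chromosome 18, 12307669 to 12344320, plus strand. TUBA1A and TUBA1C overlap by 490 exon bases on opposite strands, which the strand-specific counts keep apart.

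How far the isotypes can be told apart was measured by cutting 1 transcript per member into windows and asking which windows occur in another annotated gene. Of the 50-base windows, 65.5% were shared for TUBB2A, 62.7% for TUBA1B, 52.2% for TUBB2B, 41.1% for TUBA1A and 25.1% for TUBA1C. The share was 18.2% for TUBB, most of it with the pseudogene TUBBP1, and 9.89% for TUBB4B, 8.90% for TUBB3, 5.25% for TUBA4A and 0.993% for TUBB6. With 100-base windows it was 56.4% for TUBB2A, 46.2% for TUBB2B, 37.2% for TUBA1B and 18.3% for TUBA1A. The shared windows lay in the coding part: no 50-base window of a 3' UTR was shared except for TUBB, at 2.45%. The coding sequences of TUBB2A and TUBB2B differed at 25 aligned bases (98.1% identity) and those of TUBA1A and TUBA1B at 38 (97.2%), while TUBB was 81.0% to 84.7% identical to the other beta members. Reads with several equally good matches are not counted for any gene, so the levels of TUBA1A, TUBA1B, TUBA1C, TUBB2A and TUBB2B are understated by an amount that these counts do not show.

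**Figure D1:**
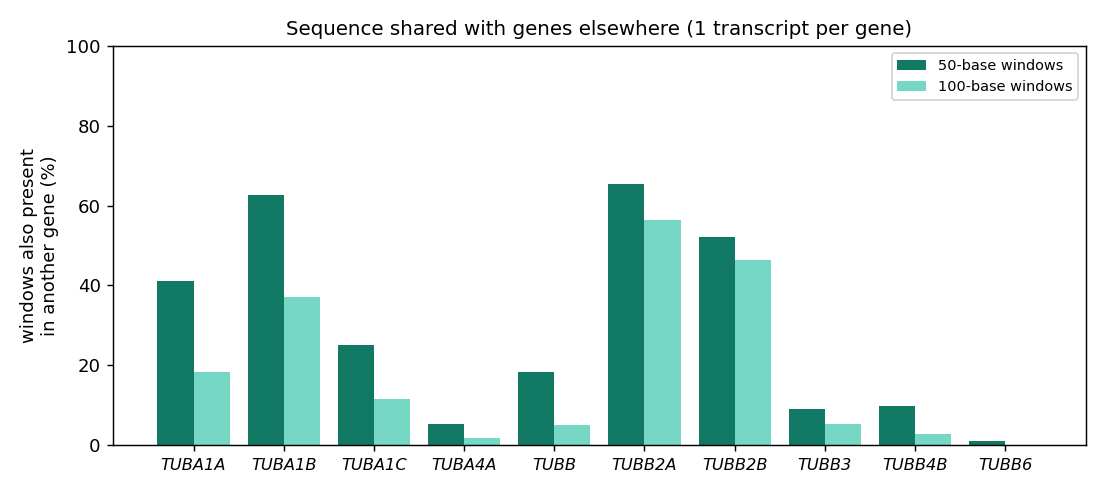
Share of each isotype's 50-base (dark) and 100-base (light) windows that also occur in another annotated gene, in percent of the windows of 1 transcript per gene. TUBB2A and TUBA1B stand highest with 50-base windows at 65.5% and 62.7%, and TUBB6 lowest at 0.993%.

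TUBB3 carries a further limit. AC092143.1 (ENSG00000198211), an annotated gene on the same strand, covers 1584 of the 1769 bases of the main TUBB3 transcript (89.5%) and 95.8% of its coding part. Both identifiers are listed in the counts, where a read that falls on 2 genes is counted for neither, and AC092143.1 itself had 0 reads in all 6 samples. The TUBB3 values come from what is left of the gene, so its level is understated and is not ranked among the isotypes below.

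Libraries held 15975170, 11290889 and 18944148 gene reads in shYES1 samples 1 to 3, and 12825919, 13651401 and 16388822 in shNT samples 1 to 3. YES1 itself, the targeted gene, averaged 44.1 ± 1.70 CPM in shYES1 cells and 179.5 ± 1.65 CPM in shNT cells (SD, n = 3 each), a log2 fold change of -2.02 (SE 0.0371, edgeR quasi-likelihood test, adjusted p = 7.93e-40). CPM are the gene's reads divided by the TMM-scaled size of its library, so they can be compared between samples. Of 8 hepatocyte markers, only TF and SERPINA1 had enough reads to be tested, TTR and HNF4A were at 0 in every sample, and ALB never exceeded 1 read, so the liver label of the line is not matched by these defining markers. The summed level of the 8 was 19.8 to 22.0 CPM in shYES1 samples and 20.7 to 23.95 CPM in shNT samples. In bulk RNA, fewer cells that express a gene and less of its RNA per cell cannot be told apart.

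All 10 isotypes passed the filter on low counts and were tested. In shYES1 cells 3 of them rose (TUBA1A, TUBB3 and TUBB2A), 6 fell (TUBB, TUBA1B, TUBA4A, TUBA1C, TUBB6 and TUBB4B) and TUBB2B did not pass the test. These 9 calls stand against a background in which 65.3% of the 14239 genes tested were called, 32.5% higher and 32.8% lower in shYES1, so the number of members called says little by itself. The groups did not overlap for 9 of the 10 members, against 67.9% of all genes tested. The median log2 fold change was -0.13 over the members and -0.00469 over all genes tested. What set the members apart from each other was direction and size, from a log2 fold change of 1.07 for TUBA1A to -0.55 for TUBB.

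**Figure D2:**
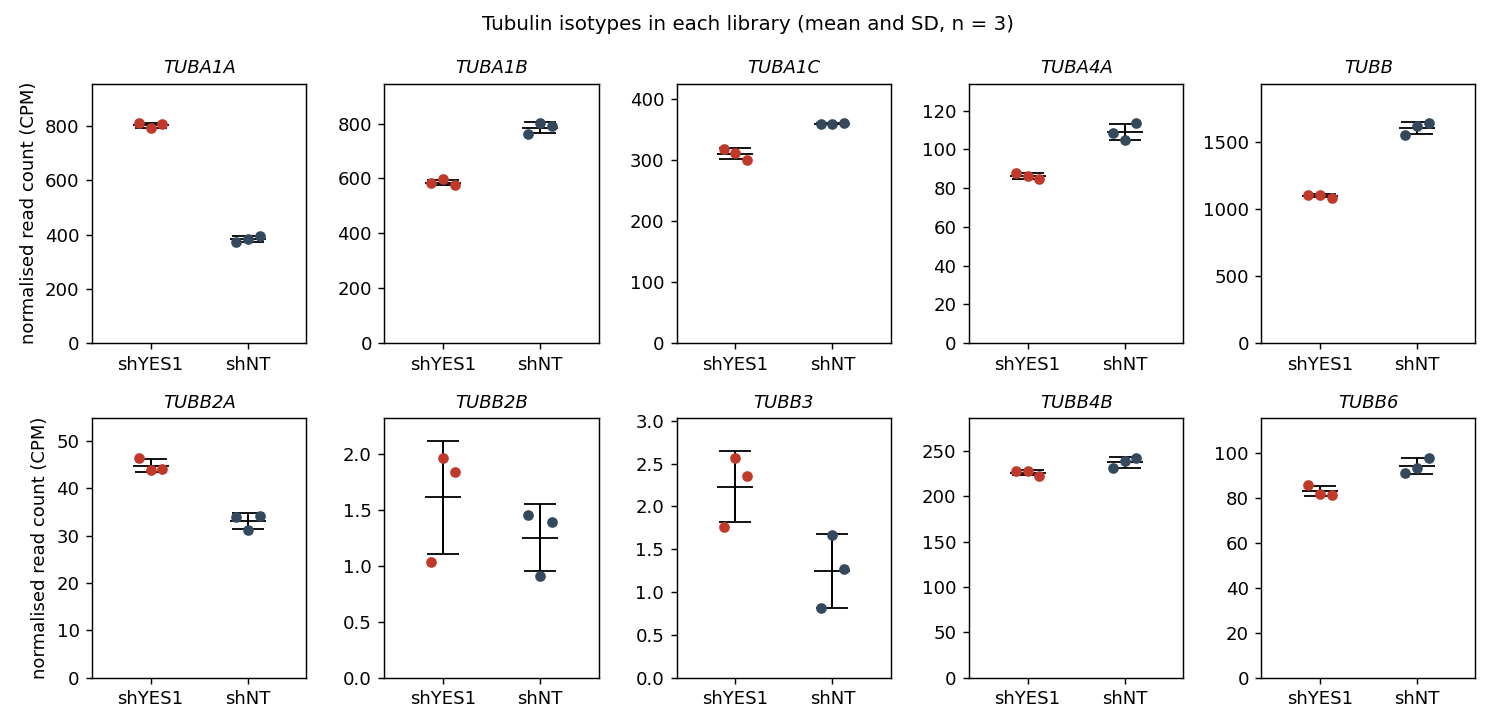
Normalised read count (CPM) of each isotype in the 3 shYES1 samples (red) and the 3 shNT samples (dark blue), with the mean and SD as bars and each vertical axis starting at 0. TUBA1A, TUBB2A and TUBB3 lie higher in shYES1, TUBB2B overlaps, and the other members lie lower in shYES1, TUBB4B by the least.

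Among the alpha isotypes, 1 rose and 3 fell. TUBA1A, a main alpha-tubulin of developing neurons, had 811, 794 and 807 CPM in shYES1 samples 1 to 3, against 372, 383 and 395 CPM in shNT samples 1 to 3. All 3 shYES1 samples lay far above all 3 shNT samples, and the samples of each group lay close together. The means were 804 ± 8.77 CPM in shYES1 cells and 383 ± 11.6 CPM in shNT cells (SD, n = 3 each), a 2.10-fold difference (log2 fold change 1.07, SE 0.0255, edgeR adjusted p = 3.04e-35). TUBA1A was the 1 member called at least 2-fold higher, as were 2.5% of all genes tested. Changes as large in either direction were seen in 7.51% of the genes tested.

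TUBA1B, a widely expressed alpha isotype, had 583, 596 and 576 CPM in shYES1 samples and 762, 801 and 791 CPM in shNT samples. The order was the opposite of that of TUBA1A, again with no overlap between the groups. TUBA1B fell 1.34-fold (log2 fold change -0.43, SE 0.0249, edgeR adjusted p = 5.16e-20). TUBA1C, another alpha isotype of the same cluster, had 318, 311 and 301 CPM in shYES1 samples and 359, 359 and 360.2 CPM in shNT samples. It fell less, by 0.21 on the log2 scale (SE 0.0265, edgeR adjusted p = 1.21e-09), and its shNT samples were almost level with each other. TUBA4A, which encodes no terminal tyrosine and is known from platelets, muscle and brain, had 87.6, 86.5 and 84.5 CPM in shYES1 samples and 108, 105 and 114 CPM in shNT samples. TUBA4A fell by 0.34 on the log2 scale (SE 0.0365, edgeR adjusted p = 2.10e-11), with every shYES1 sample below every shNT sample.

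The 6 beta isotypes gave 2 rises, 3 falls and 1 member that did not pass. TUBB, the beta isotype with the most reads in both groups, had 1106, 1104 and 1084 CPM in shYES1 samples and 1552, 1618 and 1638 CPM in shNT samples. The shYES1 samples were all lower, and the gap between the groups was several times the spread within either. TUBB fell 1.46-fold, to 1098 ± 12.2 CPM in shYES1 cells, against 1603 ± 45.0 CPM in shNT cells (SD, n = 3 each; log2 fold change -0.55, SE 0.0242, edgeR adjusted p = 1.41e-24). It was the largest fall among the members, though 26.4% of all genes tested changed by at least as much in either direction.

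TUBB2A, an isotype abundant in brain and present in many tissues, had 46.4, 43.8 and 44.1 CPM in shYES1 samples and 33.9, 31.2 and 34.2 CPM in shNT samples. The shYES1 samples were all higher, and TUBB2A rose 1.35-fold (log2 fold change 0.43, SE 0.0530, edgeR adjusted p = 7.77e-10). TUBB2B, its near-identical neighbour and a beta isotype of migrating neurons, was almost silent, with 17, 23 and 36 reads in shYES1 samples and 18, 12 and 22 reads in shNT samples. Its groups overlapped, and a log2 fold change of 0.34 (SE 0.269, 95% interval -0.19 to 0.87, edgeR adjusted p = 0.270) leaves a change of the size of TUBB2A within its error. At this depth no difference was detectable for TUBB2B. Since 60.4% of the 50-base windows of TUBB2A also occur in TUBB2B, both values rest on the parts of the genes that differ and are uncertain.

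TUBB3, the beta isotype used as a neuronal marker and often studied in tumours, had 29, 30 and 46 reads in shYES1 samples and 10, 22 and 20 reads in shNT samples. On the CPM scale these were 1.77, 2.57 and 2.35 in shYES1 samples and 0.808, 1.66 and 1.27 in shNT samples. The groups did not overlap, but the lowest shYES1 sample was close to the highest shNT sample. TUBB3 rose 1.75-fold (log2 fold change 0.81, SE 0.247, 95% interval 0.32 to 1.29, edgeR adjusted p = 0.00396), from few reads and from the part of the gene that AC092143.1 leaves uncovered.

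TUBB4B, a widely expressed isotype that is also a main beta-tubulin of cilia, had 228, 228 and 223 CPM in shYES1 samples and 231, 239 and 242 CPM in shNT samples. The groups were separate by a narrow margin, and the log2 fold change of -0.07 (SE 0.0282, edgeR adjusted p = 0.0243) was the smallest of the 10. With library size alone as the scaling the value was 0.0255, on the other side of 0 (edgeR adjusted p = 0.438). The call was also lost with DESeq2 (adjusted p = 0.0932), without the filter on low counts (edgeR adjusted p = 0.187), with unstranded counts (edgeR adjusted p = 0.0905), without shYES1 sample 3 (edgeR adjusted p = 0.128) and without shNT sample 3 (edgeR adjusted p = 0.106). TUBB6, the most divergent beta isotype of the set by its distance from TUBB, had 85.8, 82.0 and 81.5 CPM in shYES1 samples and 91.0, 93.6 and 97.9 CPM in shNT samples. It fell by 0.18 on the log2 scale (SE 0.0378, edgeR adjusted p = 3.84e-05), with every shYES1 sample below every shNT sample.

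**Figure D3:**
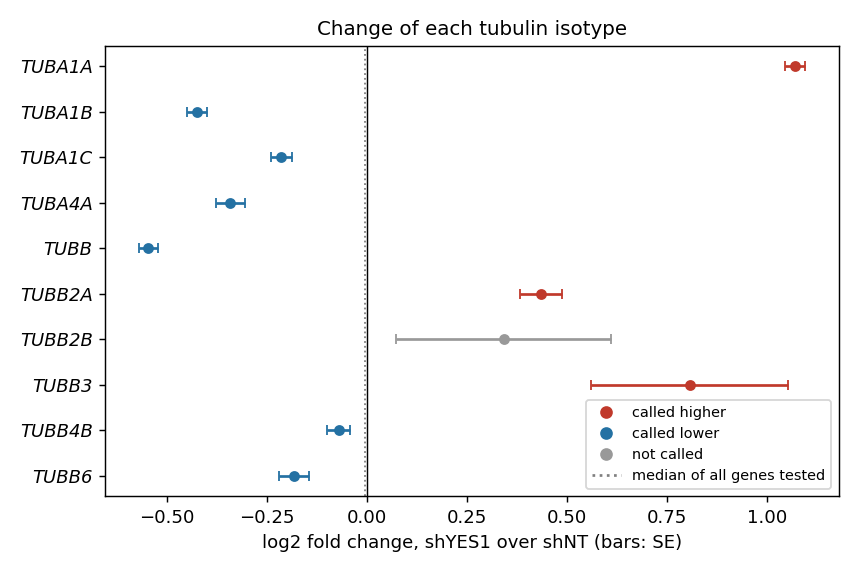
Log2 fold change of each isotype, shYES1 over shNT, with bars of 1 SE (n = 3 samples each); red marks calls higher in shYES1, blue calls lower and grey no call. TUBA1A lies at 1.07 and TUBB at -0.55, and the bars of TUBB2B and TUBB3 are the widest.

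Per kilobase of merged exons, the order of levels differed between the groups. In shYES1 cells it was TUBB (327 CPM per kilobase), TUBA1A (235), TUBA1B (164), TUBB4B (107), TUBA1C (66.9), TUBB2A (25.9), TUBA4A (21.1), TUBB6 (20.2) and TUBB2B (0.736). In shNT cells it was TUBB (477 CPM per kilobase), TUBA1B (220), TUBB4B (112), TUBA1A (112), TUBA1C (77.6), TUBA4A (26.7), TUBB6 (22.9), TUBB2A (19.2) and TUBB2B (0.571). On this measure, TUBA1A thus stood above TUBA1B in shYES1 cells and below it in shNT cells. The measure does not correct for reads lost to shared sequence. The order within each group rests on the length chosen, and the place of TUBB2A beside TUBA4A and TUBB6 is not read from it. Neighbours whose samples overlapped were TUBA4A and TUBB6 in shYES1 cells, at 20.7 to 21.5 and 19.8 to 20.8 CPM per kilobase, and TUBB4B and TUBA1A in shNT cells, at 109.5 to 114.8 and 108.7 to 115.5 CPM per kilobase. TUBB3 had 0.503 CPM per kilobase in shYES1 cells and 0.281 in shNT cells. With only the 2846 merged exon bases that AC092143.1 leaves free as its length, it had 0.783 in shYES1 cells and 0.438 in shNT cells. Of the main TUBB3 transcript only 185 bases are left free, so a length set by that transcript would give a higher level. Neither of the printed values corrects for the overlap.

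The make-up of the alpha pool differed between the groups. TUBA1A made up 48.4%, 47.6% and 48.9% of the alpha reads per kilobase in shYES1 samples 1 to 3, against 25.5%, 25.5% and 26.1% in shNT samples 1 to 3. TUBA1B made up 33.6% ± 0.526 in shYES1 cells and 50.4% ± 0.581 in shNT cells (SD, n = 3 each). By this measure TUBA1A had the largest alpha share in every shYES1 sample and TUBA1B in every shNT sample. Shared 50-base windows made up 62.7% for TUBA1B and 41.1% for TUBA1A, so more of the TUBA1B reads may be lost. Which of them was more abundant in shYES1 cells is therefore not settled, and the values show a shift in share between the groups. TUBA1C took 13.8% ± 0.284 of the alpha pool in shYES1 cells and 17.8% ± 0.334 in shNT cells, and TUBA4A 4.34% ± 0.0420 in shYES1 cells and 6.13% ± 0.240 in shNT cells. Counting only positions in unshared windows as length, TUBA1A had 48.5% in shYES1 cells and 25.7% in shNT cells. These positions were pooled over all annotated transcripts of a gene, 2589 for TUBA1A and 2566 for TUBA1B. This length therefore does not correct for the unequal sharing seen with 1 transcript per gene. With the longest transcript as length TUBA1A had 56.7% in shYES1 cells and 32.9% in shNT cells. With unstranded counts the difference in share, shYES1 minus shNT in percentage points, was 22.8 for TUBA1A (22.6 with strand), -11.1 for TUBA1B (-16.8 with strand), -6.24 for TUBA1C (-4.05) and -5.51 for TUBA4A (-1.79).

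In the beta pool the order of TUBB and TUBB4B held in every sample. TUBB made up 67.9% ± 0.104 of the beta reads per kilobase in shYES1 cells and 75.4% ± 0.236 in shNT cells (SD, n = 3 each). TUBB4B, whose own level hardly differed, took 22.3% ± 0.0735 of the pool in shYES1 cells and 17.8% ± 0.0423 in shNT cells. TUBB2A took 5.39% ± 0.141 in shYES1 cells and 3.03% ± 0.183 in shNT cells. TUBB6 took 4.19% ± 0.0857 in shYES1 cells and 3.62% ± 0.0528 in shNT cells. With merged exons as length, TUBB2B and TUBB3 stayed under 1% of the beta pool in all 6 samples. The share of TUBB3 is understated and rests on that length, as AC092143.1 leaves only 185 bases of its main transcript free. With positions in unshared windows as length, the share of TUBB2A was 11.3% in shYES1 cells and 6.49% in shNT cells, above TUBB6 in both groups (3.61% in shYES1 cells and 3.19% in shNT cells). With the longest transcript as length, TUBB2A had 5.03% in shYES1 cells and 2.83% in shNT cells, below TUBB6 in both groups (6.89% in shYES1 cells and 5.93% in shNT cells). The order of TUBB2A and TUBB6 therefore depends on the length used, while the share of TUBB2A was higher in shYES1 cells with each of the 3 lengths.

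**Figure D4:**
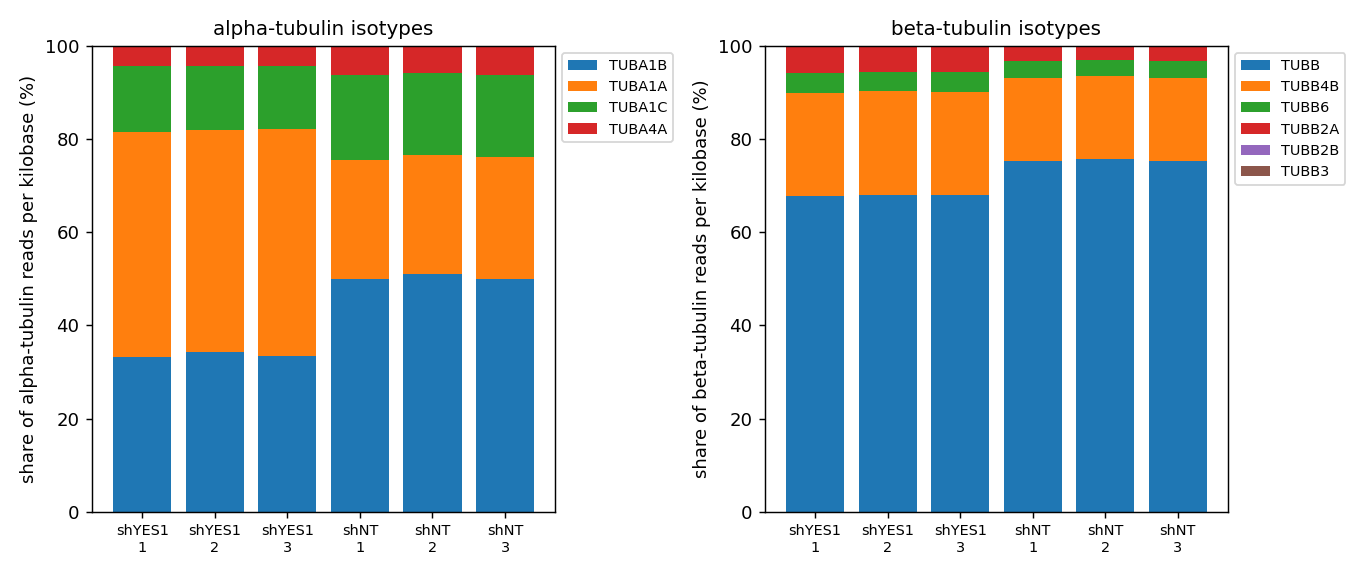
Share of each isotype in the alpha (left) and beta (right) tubulin reads per kilobase, in percent, with 1 bar per sample, shYES1 before shNT. TUBA1A fills 47.6% to 48.9% of the alpha bars in shYES1 and 25.5% to 26.1% in shNT, and TUBB fills most of every beta bar.

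Ratios within a sample do not depend on the scaling between samples, and 9 pairs were compared. TUBA1A over TUBA1B in reads was 1.38 in shYES1 cells and 0.488 in shNT cells, a difference of 1.49 on the log2 scale. TUBB2A over TUBB was 0.0408 in shYES1 cells and 0.0206 in shNT cells, a log2 difference of 0.98. TUBB4B over TUBB differed by 0.48 on the log2 scale, TUBB6 over TUBB by 0.37, TUBB3 over TUBB by 1.43, TUBA1C over TUBA1B by 0.21 and TUBA4A over TUBA1B by 0.09. In each of these 7 pairs the groups did not overlap, and the exact two-sided permutation test gave p = 0.1, the smallest that 3 against 3 samples allow (adjusted over the 9 pairs, 0.129). TUBB2B over TUBB differed by 0.89 with overlapping groups (exact permutation p = 0.2, adjusted 0.225). TUBB2B over TUBB2A differed by -0.09 (exact permutation p = 0.9, adjusted 0.9), with overlapping groups. Since no pair could reach a p below 0.1, the test does not tell pairs that shifted from pairs that did not. The difference for TUBA4A over TUBA1B was 0.0444 without shNT sample 2 (exact permutation p = 0.2), and with unstranded counts 0.0823 (exact permutation p = 0.2). It was 0.0728 without shYES1 sample 1 (exact permutation p = 0.3), 0.0982 without shYES1 sample 2 (p = 0.2) and 0.0892 without shYES1 sample 3 (p = 0.3). A ratio shows that members changed unequally and not which of them changed.

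Summed over isotypes, the counted alpha reads were higher and the beta reads lower in shYES1 cells. The 4 alpha isotypes summed to 1785 ± 16.6 CPM in shYES1 cells and 1636 ± 30.9 CPM in shNT cells (SD, n = 3 each), a ratio of 1.09. The 6 beta isotypes summed to 1456 ± 17.1 CPM in shYES1 cells and 1970 ± 53.9 CPM in shNT cells, a ratio of 0.739. The samples of the groups did not overlap for either sum. Both directions held under the 4 scalings tried, with alpha ratios of 1.03 to 1.17 and beta ratios of 0.694 to 0.790. The higher alpha sum came from TUBA1A alone, as TUBA1B, TUBA1C and TUBA4A fell. The sums do not correct for reads lost to shared sequence, which may be more for TUBA1B than for TUBA1A. The direction of the alpha sum is therefore not settled beyond the counted reads. Alpha over beta, per kilobase, was 1.01 ± 0.00403 in shYES1 cells and 0.689 ± 0.00510 in shNT cells. This value does not depend on the scaling but does depend on the lengths used and on reads lost to shared sequence. In reads, without lengths, alpha over beta was 1.23 ± 0.00370 in shYES1 cells and 0.831 ± 0.00736 in shNT cells. No test was run on sums or shares, since they combine members.

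The other tubulin genes were few in these cells. Of 12 listed, 4 had enough reads to be tested, and the alpha genes TUBA3C, TUBA3D and TUBA3E and the beta gene TUBB8 were at 0 in all samples. The gamma-tubulins, which nucleate microtubules at centrosomes, both rose: TUBG2 averaged 57.6 ± 1.46 CPM in shYES1 cells and 33.9 ± 1.25 CPM in shNT cells (log2 fold change 0.76, SE 0.0494, edgeR adjusted p = 1.74e-18), and TUBG1 65.8 ± 1.39 CPM in shYES1 cells and 43.6 ± 1.17 CPM in shNT cells (0.60). These genes are close copies of each other, so how their reads divide is uncertain. TUBE1, the epsilon-tubulin of centrioles, fell by 0.47 on the log2 scale, to 14.1 ± 0.736 CPM in shYES1 cells, against 19.6 ± 0.859 CPM in shNT cells.

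Tubulin folding genes rose more often than they fell. Newly made tubulin passes from prefoldin to the CCT chaperonin ring and then to the cofactors TBCA to TBCE, which join alpha to beta. Of 20 matched genes of this list, 14 rose, 1 fell and 5 did not pass; the median log2 fold change was 0.29, against -0.00469 over all genes. The share of genes called over the whole table was 32.5% higher and 32.8% lower. TBCB, which binds alpha-tubulin, averaged 76.7 ± 4.46 CPM in shYES1 cells and 40.1 ± 0.582 CPM in shNT cells (log2 fold change 0.95, SE 0.0466, edgeR adjusted p = 7.29e-23). TBCA, which binds beta-tubulin, averaged 141 ± 2.66 CPM in shYES1 cells and 97.6 ± 3.33 CPM in shNT cells (0.52). The 8 CCT subunits on the list all rose. TBCEL, a relative of TBCE that destabilises tubulin, fell by 0.83 on the log2 scale, to 18.5 ± 0.892 CPM in shYES1 cells, against 32.5 ± 2.17 CPM in shNT cells.

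Among enzymes that modify tubulin, 10 of 18 tested genes rose, 1 fell and 7 did not pass (median log2 fold change 0.29), against 65.3% of all genes tested called, 32.5% higher and 32.8% lower. VASH2, which removes the terminal tyrosine of alpha-tubulin, averaged 2.497 ± 0.529 CPM in shYES1 cells and 0.919 ± 0.305 CPM in shNT cells (log2 fold change 1.42, SE 0.264, edgeR adjusted p = 6.87e-06). The VASH2 values rest on few reads, 9 to 42 per library. SVBP, the small partner that vasohibins need, averaged 20.2 ± 1.70 CPM in shYES1 cells and 11.8 ± 1.05 CPM in shNT cells (0.79). TTL, which adds the tyrosine back, also rose, from 67.3 ± 1.04 CPM in shNT cells to 85.2 ± 1.08 CPM in shYES1 cells (0.34, edgeR adjusted p = 9.49e-11). VASH1 did not pass (edgeR adjusted p = 0.673). TTLL3, a glycylase, was the 1 call lower, at 26.0 ± 1.14 CPM in shYES1 cells and 28.9 ± 2.28 CPM in shNT cells (log2 fold change -0.15, edgeR adjusted p = 0.0324), and its samples overlapped between the groups.

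Genes of the gamma-tubulin complex and of augmin, which start and branch microtubules of the spindle, mostly fell. Of 17 tested, 12 fell, 1 rose and 4 did not pass (median log2 fold change -0.38), against 32.8% of all genes tested called lower. MZT2B, a small subunit of the complex, fell to 16.1 ± 1.95 CPM in shYES1 cells, against 64.3 ± 1.59 CPM in shNT cells (log2 fold change -2.01, SE 0.0596, edgeR adjusted p = 1.92e-31), and its level is uncertain because MZT2A is a near-identical copy. HAUS2, an augmin subunit, fell to 6.82 ± 0.330 CPM in shYES1 cells, against 26.2 ± 0.895 CPM in shNT cells (-1.95). TUBGCP2, a core subunit, was the 1 rise, at 128 ± 3.65 CPM in shYES1 cells and 107 ± 1.81 CPM in shNT cells (0.25). Of the 3 genes of the decay pathway, CNOT11, a subunit of the deadenylase that removes poly(A) tails, rose to 63.1 ± 1.73 CPM in shYES1 cells, against 49.8 ± 1.52 CPM in shNT cells (log2 fold change 0.34, edgeR adjusted p = 5.36e-09). TTC5, which reads the nascent tubulin chain, had a log2 fold change of 0.04 (SE 0.0975, edgeR adjusted p = 0.749), and SCAPER, its partner, one of 0.03 (SE 0.0818, edgeR adjusted p = 0.781).

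**Figure D5:**
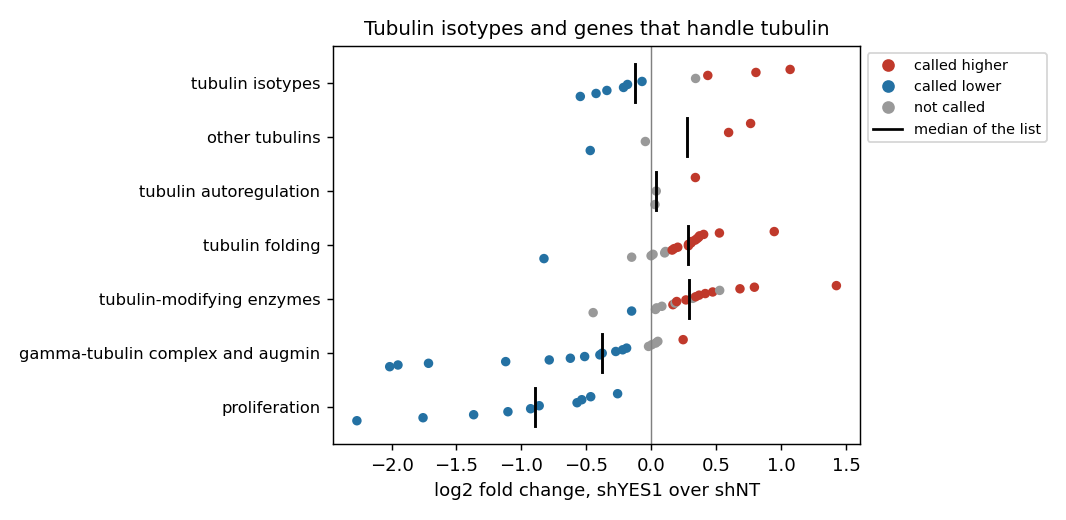
Log2 fold change, shYES1 over shNT, of each tested gene of the tubulin isotypes and of 6 lists of related genes, coloured by call, with a black line at each list's median. The isotypes spread to both sides of 0, the folding and modifying genes lie mostly above 0, and the gamma-tubulin complex, augmin and proliferation genes lie mostly below.

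Other marker lists were also compared between the groups. All 10 proliferation markers fell (median log2 fold change -0.90), against 32.8% of all genes tested, with a summed level of 860 to 879 CPM in shYES1 samples and 1659 to 1665 CPM in shNT samples; their part in the falls of TUBB and TUBA1B was not tested. Of 9 neuronal markers, RBFOX3, STMN2, DCX and ELAVL4 were at 0 in every sample, and 3 had enough reads to be tested. SYP rose (log2 fold change 0.84, edgeR adjusted p = 0.00265), SNAP25 fell (-1.80) and MAP2 did not pass (0.05, edgeR adjusted p = 0.480). The summed neuronal level was 34.2 to 37.7 CPM in shYES1 samples and 58.7 to 60.9 CPM in shNT samples, a difference carried by SNAP25, which had 10.2 ± 0.750 CPM in shYES1 cells and 35.6 ± 2.05 CPM in shNT cells. The median log2 fold change of the 3 tested neuronal markers was 0.05. Of 4 mesenchymal markers, 3 fell and 1 rose, and the sum was 16624 to 16796 CPM in shYES1 samples and 25642 to 28286 CPM in shNT samples, most of it FN1. Of 3 tested epithelial markers, 2 rose and 1 did not pass. The sum over the 5 listed was 1070 to 1091 CPM in shYES1 samples and 764 to 774 CPM in shNT samples. The mesenchymal and epithelial counts stand against 65.3% of all genes tested called, 32.5% higher and 32.8% lower, so they say little by themselves. The part of the neuronal, mesenchymal and epithelial markers in the isotype values was not tested.

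Across the series, genes with the sequence CCTTTC in the 3' UTR tended to be lower in shYES1 cells, which was known from an earlier look at these data. The letters were searched on the transcript strand only, in the longest annotated 3' UTR of each gene. Other 3' UTRs of the same gene were not searched. Among the isotypes TUBB held 3 matches and TUBA4A 2, and the other 8 members held none. Both genes with matches fell, as did TUBA1B, TUBA1C, TUBB4B and TUBB6 without one. Of the 11917 tested genes with at least 50 bases of 3' UTR, 45.6% held the sequence; the median log2 fold change was -0.08 with it and 0.09 without it. With 2 members holding it, nothing is read from these matches about the isotypes.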

How the data were processed

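RNA was measured in 3 shYES1 and 3 shNT samples of SNU-387 cells. Trizol and Qiagen columns were used to extract the RNA and a KAPA stranded poly(A) kit to make libraries, per the labels' protocols. The authors deposited whole-number counts of reads per gene, 1 file per sample and not normalized. The submitters' processing notes name CASAVA 1.8.2, Trimmomatic 0.35, STAR 2.5.1b and GRCh38. Neither annotation release nor read length was given in the sources used here. The reverse-strand counts (column 4) were used, since 93.5% to 94.0% of stranded gene reads fell there. Entries that name no gene (4 per file) took up 19.8% to 20.3% of reads and entered neither library sizes nor tests.

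Of 58219 identifiers, 57392 were matched to symbols. In R 4.3.3, edgeR 4.0.16 filtered genes (filterByExpr, minimum count 10, total 15, leaving 14239), scaled libraries by TMM and ran the robust quasi-likelihood test of shYES1 against shNT, with Benjamini-Hochberg adjustment over all genes tested and a threshold of 0.05. The SE was taken from the fold change and its F statistic and is approximate. The common biological coefficient of variation was 2.10%. CPM are scaled by TMM, and a length is the merged exons of GENCODE release 29. Windows of 50 and 100 bases were compared with all its transcripts, leaving out genes at the same locus. Identity between members was computed on aligned coding sequences, as protein sequences were not used here. Some alpha-tubulin sequences are not reported here. Within-sample log2 ratios of 9 pairs were tested by exact permutation. The members, lists, pairs and alternatives were chosen with earlier results of these data known. All 10 members were named. Of each list of related genes, at most 2 rises and 2 falls were named, from called genes averaging 1 CPM or more. TTL, VASH1 and genes whose list count calls for a name were named besides, chosen after their values were seen.

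Alternatives were RLE scaling, library size only, TMM on genes without the 3' UTR sequence, DESeq2 1.42.0, limma-voom (limma 3.58.1), no low-count filter, a minimum of 1 CPM in 3 libraries, a replicate block by sample number, leaving out each library, unstranded counts and other lengths. A test against a change of 1.2-fold was added after seeing the data. The edgeR step was run on simulated data in which few genes changed, with rises and falls balanced. That setting differs from these data, so it does not test the scaling used here. Replicates differed by more than sampling noise (chi-square divided by its degrees of freedom, 1.15 to 2.18), so none was taken for the same library sequenced again. These values cannot tell separate cultures from separate libraries of the same culture.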

Additional observations from a re-analysis of the deposited data

How the results depend on the processing

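The calls of TUBA1A, TUBB2A and TUBB3 as higher and of TUBB, TUBA1B and TUBA4A as lower held under all 16 alternatives run for each, with log2 fold changes of 0.98 to 1.17 for TUBA1A, 0.35 to 0.53 for TUBB2A, 0.60 to 1.04 for TUBB3, -0.64 to -0.45 for TUBB, -0.52 to -0.33 for TUBA1B and -0.43 to -0.25 for TUBA4A. With library size only TUBA1C was -0.12 (-0.21 with TMM) and TUBB6 -0.09 (-0.18 with TMM, adjusted p = 0.0407 against 3.84e-05). Both lost their calls only in the test against a change of 1.2-fold, which was added after seeing the data and called 5185 of all genes (9299 without it) and 3 members lower (6 without it). TUBB4B lost its call under 7 alternatives, among them library size only, where it was 0.0255. Leaving out 1 library gave 8751 to 9078 calls over all genes, 3 to 3 members higher and 5 to 6 lower. The log2 ratio of TUBB2B to TUBB2A, -0.09 with all libraries, ranged from -0.28 to 0.22 when 1 library was left out, and was above 0 without shYES1 sample 1 (0.22) and without shNT sample 1 (0.01). The cause was not tested.

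Library size only moved the median of all genes to 0.09 and gave 5799 calls higher and 3762 lower, and scaling on genes without the 3' UTR sequence moved it to -0.09 and gave 3580 and 5671, against 4623 and 4676. Samples with the same number did not deviate together (correlations of 0.0150, 0.0266 and 0.00835), so the numbers do not pair samples. With the replicate block 9297 genes were called, and the members' calls were the same, 3 higher and 6 lower. DESeq2 called 7953 genes.

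Depth limits TUBB2B and TUBB3, with 10 to 46 reads per library, and VASH2, with 9 to 42. Reads lost to shared sequence, and to AC092143.1 for TUBB3, cannot be recovered from the counts.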
